A study of Mus musculus with 2 samples.

Results

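The enzyme genes of glycolysis were followed in MS1 cells, a mouse endothelial line of pancreatic islet origin, between a culture with a hairpin against Pspc1 and a control culture. The 10 genes were chosen by symbol, with a main enzyme gene for most steps from hexokinase to lactate dehydrogenase, and all 10 were found among the 11405 genes of the deposited tables. They are Hk2, Pfkl, Aldoa, Tpi1, Gapdh, Pgk1, Pgam1, Eno1, Pkm and Ldha. Both cultures were MS1 cells that received a lentivirus. In the control the hairpin RNA was directed at LacZ, which is bacterial and which mouse cells lack, and the genotype label is wt. In the other culture the hairpin was directed at Pspc1, which encodes a paraspeckle RNA-binding protein, and the genotype label is Pspc1 knockdown. The labels name no clone, no hairpin sequence and no time after infection. Each group held 1 library of poly-A RNA. No value therefore has a replicate error, no test across cultures was possible, and a difference between the libraries is not shown to come from the hairpin.

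Glycolysis splits glucose into pyruvate in the cytosol. The first steps spend ATP to prime and cleave the sugar, the later steps regain ATP and reduce NAD, and lactate dehydrogenase reoxidises the NADH by turning pyruvate into lactate. Endothelial cells are known to draw much of their ATP from this route even when oxygen is present. Many of the enzyme genes are textbook targets of the hypoxia-inducible factors and of Myc, and Gapdh and Pgk1 are in common use as reference genes.

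The control library held 64009912 reads on the listed genes and the knockdown library 53518762. Values are the authors' scaled read counts, and control values come first throughout. Pspc1 itself had 28.8 and 3.78, from 1880 and 192 reads, a log2 ratio of -2.77. The log2 ratio is that of knockdown over control with 0.5 added to each value. A gene was called higher or lower if the mean of both values was at least 50 and the change at least 2-fold. Of 3629 genes with that mean, 20 were called higher and 34 lower, but 23 and 25 after scaling by a trimmed mean of M values, 23 and 24 after scaling by the median of ratios and 17 and 50 after scaling by total reads. Intervals are 95% exact counting intervals of the log2 ratio without the added 0.5, and they cover counting error only. Of 12 endothelial markers 10 were analysed, and at any mean 8 of these had a log2 ratio below 0 and 2 above. Without a minimum mean 45.2% of all genes lay above 0. The median of the 8 markers with a mean of at least 50 was -0.27, beside 0.07 for all genes of that mean. Cdh5 had 859.4 and 511.2, Kdr 148.9 and 77.3, Sox18 82.5 and 47.3, Erg 119.4 and 84.96 and Tek 13.6 and 7.13. Flt1 had 47.4 and 41.3, Pecam1 2258 and 2175, Eng 594.8 and 592.9, Emcn 112.5 and 113.2 and Tie1 1080 and 1355. Their sums, 5316 and 5005, rest mostly on Pecam1 and Tie1. The 8 markers of islet endocrine cells were looked for by symbol, and no value of theirs is analysed here. Of 7 acinar and ductal markers only Krt19 was, and it was called higher (23.8 and 115.2). The 1 analysed leukocyte marker of 6, Cd68, had 102.7 and 123.7, and both analysed fibroblast and mural markers of 8 summed to 1.87 and 3.37. The part of these markers in the values below was not tested.

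None of the 10 enzyme genes was called higher or lower. Their values were similar in both libraries and mostly a little larger in the knockdown library. The minimum mean of 50 left 9 genes, of which 8 had a log2 ratio above 0, where 60.1% of all genes of that mean did, and none reached 2-fold, where 1.49% of all genes did in either direction. Their median log2 ratio was 0.19, a fold of 1.14, beside 0.07 for all genes of that mean. The range ran from -0.002 for Ldha to 0.33 for Aldoa. Hk2, the gene left out by the minimum, had a mean of 17.0. In such bulk samples fewer cells with a transcript and less of it per cell cannot be told apart. The plot of values by gene shows how small the gaps were beside the spread of levels between genes.

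**Figure D1:**
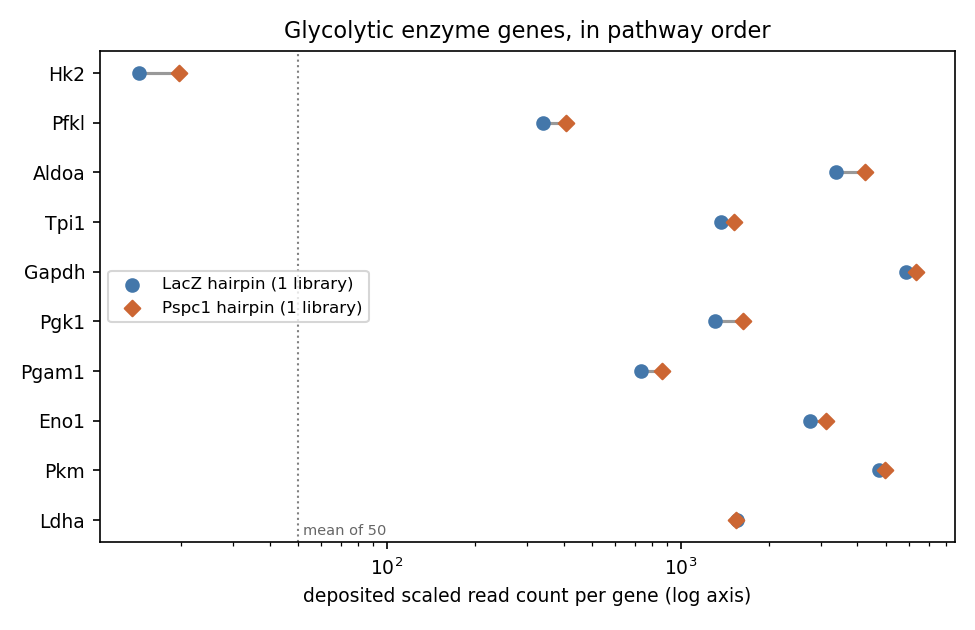
Deposited scaled read count of each glycolytic enzyme gene on a log axis, in pathway order, with a circle for the LacZ hairpin library and a diamond for the Pspc1 hairpin library (1 library each). The pairs lie close together, from 14.3 and 19.6 for Hk2 to 5865 and 6323 for Gapdh, and the symbols of Ldha coincide.

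Of the 10 genes, those of the sugar-priming and cleaving steps all had the larger value in the knockdown library. Hk1, Gpi1 and Pfkm, of the same steps, had the smaller value and are given further below. Hk2 (ENSMUSG00000000628, mm10 chromosome 6, 82725025 to 82774454, minus strand) encodes the inducible hexokinase that traps glucose as its phosphate. It had 14.3 and 19.6, from 936 and 997 reads. Its log2 ratio of 0.44 was the highest of the 10, with an interval of 0.32 to 0.58, but it lay at a low level. Pfkl (ENSMUSG00000020277, chromosome 10, 77986947 to 78010083, minus strand) encodes the liver-type subunit of phosphofructokinase, the main control point of the pathway. It had 341.1 and 406.7, a log2 ratio of 0.25 (interval 0.23 to 0.28). Aldoa (ENSMUSG00000030695, chromosome 7, 126795234 to 126800751, minus strand) encodes the aldolase that cleaves the primed sugar. It had 3391 and 4254, a log2 ratio of 0.33 (0.32 to 0.34). A second annotated gene with the symbol Aldoa (ENSMUSG00000114515, chromosome 7, 126800790 to 126809108, minus strand) starts upstream and had only 0.92 and 1.28, from 60 and 65 reads. Tpi1 (ENSMUSG00000023456, chromosome 6, 124810586 to 124814296, minus strand) encodes triosephosphate isomerase, which interconverts the products of aldolase. It had 1373 and 1522, a log2 ratio of 0.15 (0.14 to 0.16).

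The genes of the ATP-yielding steps had log2 ratios from 0.07 to 0.32. Gapdh (ENSMUSG00000057666, chromosome 6, 125161715 to 125166467, minus strand) encodes glyceraldehyde-3-phosphate dehydrogenase, which makes NADH. It had 5865 and 6323, a log2 ratio of 0.11 (0.10 to 0.12). Pgk1 (ENSMUSG00000062070, chromosome X, 106187100 to 106203699, plus strand) encodes the phosphoglycerate kinase that first regains ATP. It had 1307 and 1626, a log2 ratio of 0.32 (0.30 to 0.33). Pgam1 (ENSMUSG00000011752, chromosome 19, 41911923 to 41918660, plus strand), a phosphoglycerate mutase, had 732.4 and 864.2, a log2 ratio of 0.24 (0.22 to 0.26). Eno1 (ENSMUSG00000063524, chromosome 4, 150236721 to 150248879, plus strand), the ubiquitous enolase, had 2750 and 3135, a log2 ratio of 0.19 (0.18 to 0.20). Pkm (ENSMUSG00000032294, chromosome 9, 59656368 to 59679375, plus strand) encodes the pyruvate kinase that regains ATP a second time. It had 4731 and 4968, a log2 ratio of 0.07 (0.06 to 0.08). Its muscle-type and M2-type enzymes arise from a choice between alternative exons of this gene, which values per gene cannot tell apart.

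Ldha (ENSMUSG00000063229, chromosome 7, 46841475 to 46855627, plus strand), the lactate dehydrogenase subunit that favours lactate formation, was level between the libraries. It had 1553 and 1550, from 101335 and 78697 reads, and its interval of -0.02 to 0.01 was the only one among the 10 genes to include 0. Its ratio lay below that of the other 9 genes. The counting intervals of Ldha, Pkm, Gapdh and Eno1 did not overlap each other, but counting error is not the spread between cultures. Single ratios this close to 0 also moved with the scaling. With scaling by total reads Pkm was at -0.03 and Ldha at -0.11, and with median-of-ratios scaling Ldha was at 0.05.

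**Figure D2:**
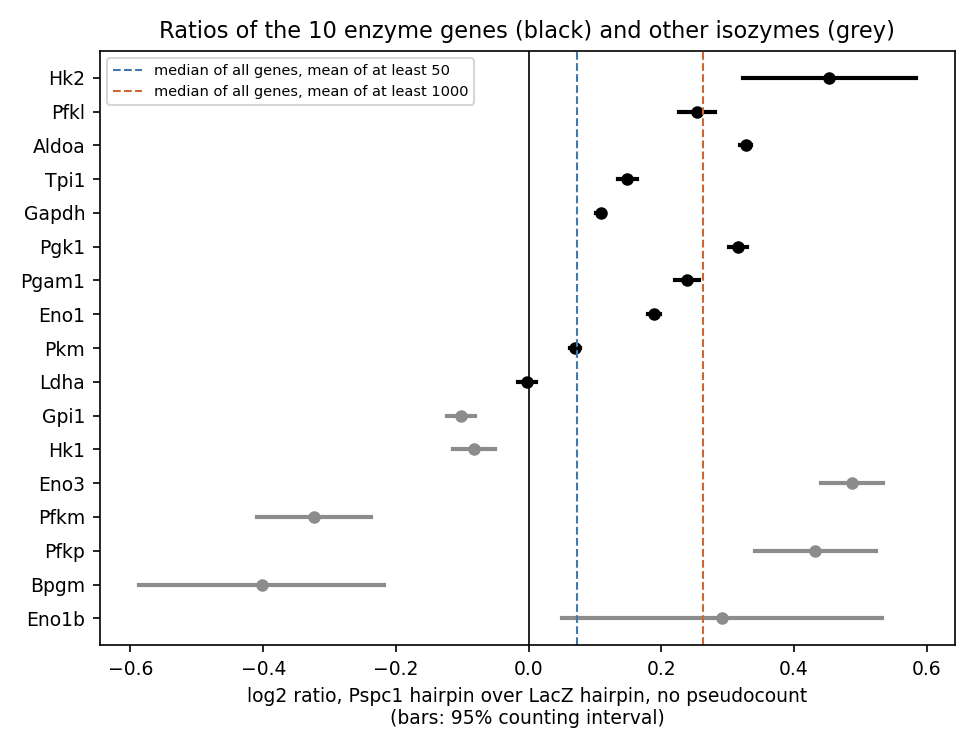
Log2 ratio of knockdown over control without pseudocount for the 10 enzyme genes (black) and the other isozymes of mean at least 5 (grey), with bars for 95% counting intervals; dashed lines give the median of all genes of mean at least 50 (0.07) and at least 1000 (0.26). The black points run from Ldha near 0 to Hk2, while Gpi1, Hk1, Pfkm and Bpgm lie below 0.

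The upstream sequences of the genes at both ends of this range are shown because the glycolytic genes are known for hypoxia response elements. The core of these elements is often ACGTG. RefSeq windows (GRCm38.p6, the assembly of mm10) were found for all 10 genes, 16 windows in all. The 250 bases before each start were searched for ACGTG on both strands. Other forms of the core were not searched. The 2 genes of mean 50 or more with the highest ratio, Aldoa and Pgk1, come first, then the 2 with the lowest, Ldha and Pkm. For a gene with several starts the window with most matches is given. Capitals mark ACGTG or its reverse complement.
Aldoa, chr7:126799255-126799504, minus strand: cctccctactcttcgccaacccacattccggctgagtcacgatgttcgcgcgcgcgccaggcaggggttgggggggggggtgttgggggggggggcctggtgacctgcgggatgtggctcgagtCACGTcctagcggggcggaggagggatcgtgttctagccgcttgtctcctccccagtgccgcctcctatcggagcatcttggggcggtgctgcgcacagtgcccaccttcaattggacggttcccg
Pgk1, chrX:106186850-106187099, plus strand: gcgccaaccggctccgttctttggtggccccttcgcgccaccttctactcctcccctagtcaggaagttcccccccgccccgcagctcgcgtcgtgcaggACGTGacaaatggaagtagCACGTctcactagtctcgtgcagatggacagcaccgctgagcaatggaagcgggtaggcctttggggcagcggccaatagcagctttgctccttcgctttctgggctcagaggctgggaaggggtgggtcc
Ldha, chr7:46845554-46845803, plus strand: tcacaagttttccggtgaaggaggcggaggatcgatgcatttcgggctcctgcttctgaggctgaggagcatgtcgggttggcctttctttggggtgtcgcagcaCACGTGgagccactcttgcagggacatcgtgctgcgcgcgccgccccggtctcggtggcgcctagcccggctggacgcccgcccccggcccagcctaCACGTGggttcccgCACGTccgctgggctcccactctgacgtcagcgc
Pkm, chr9:59656977-59657226, plus strand: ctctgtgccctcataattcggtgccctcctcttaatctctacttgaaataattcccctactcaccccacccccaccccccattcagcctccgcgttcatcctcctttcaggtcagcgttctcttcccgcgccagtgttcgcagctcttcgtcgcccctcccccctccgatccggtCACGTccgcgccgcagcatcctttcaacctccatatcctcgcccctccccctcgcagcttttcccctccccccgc
The Ldha window held 2 copies of CACGTG, a palindrome that contains ACGTG on both strands, and 1 further match. Pgk1 held 2 matches, at 150 and 131 bases before the start, counted to the first base of the match. Aldoa and Pkm held 1 each. Across the 10 genes, 6 had ACGTG in at least 1 window (Hk2, Ldha, Aldoa, Pkm, Pgam1 and Pgk1). By window it was 7 of 16, or 43.8%, beside 16.6% of all 32851 RefSeq windows of this length and 24.0% of the 3798 windows of genes of mean 50 or more. Windows of the same gene can overlap, so the windows are not independent. The overlapping windows of Aldoa hold the same ACGTG site, which counts in both. Windows of Eno1 overlap as well. The GC box GGGCGG, a motif of Sp1-type factors searched on both strands, was in 9 of the 16 windows (56.3%), beside 32.7% of all windows and 62.5% of those of genes of mean 50 or more. Ldha, the member with the most ACGTG matches, had the lowest ratio, and Hk2, with 2 matches, had the highest of the 10. A link between matches and ratios was not tested. A match is only a stretch of letters, and no binding was measured.

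Across all genes the ratio went with the level, although not among the 10 enzyme genes, where Hk2, the least abundant, had the highest ratio and the most abundant, Gapdh and Pkm, had ratios of 0.11 and 0.07. Across 5889 genes of mean at least 20 Spearman's rho between the log2 ratio and the mean value was 0.20, as a description across genes of the same 2 libraries. Of 134 genes with a mean of at least 1000, 87.3% had a log2 ratio above 0, and their median was 0.26. The 7 enzyme genes at that level (Aldoa, Tpi1, Gapdh, Pgk1, Eno1, Pkm and Ldha) had a median of 0.15, with 6 above 0. Only Aldoa and Pgk1 lay above the median of the 134 genes, and 5 lay below. When the trend in the mean value was subtracted, the median of the 9 genes turned from 0.19 to -0.018, with 4 of 9 above 0. All genes of mean 50 or more then had a median of 0.019, with 52.7% above 0. When the trend in exonic length and GC content was subtracted instead, the median of the 9 genes was 0.07, with 8 of 9 above 0. All genes of that mean then had a median of 0.034, with 55.9% above 0. Exons of the 9 genes had a median summed length of 3310 bp, against 3973 bp for all genes of mean 50 or more.

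**Figure D3:**
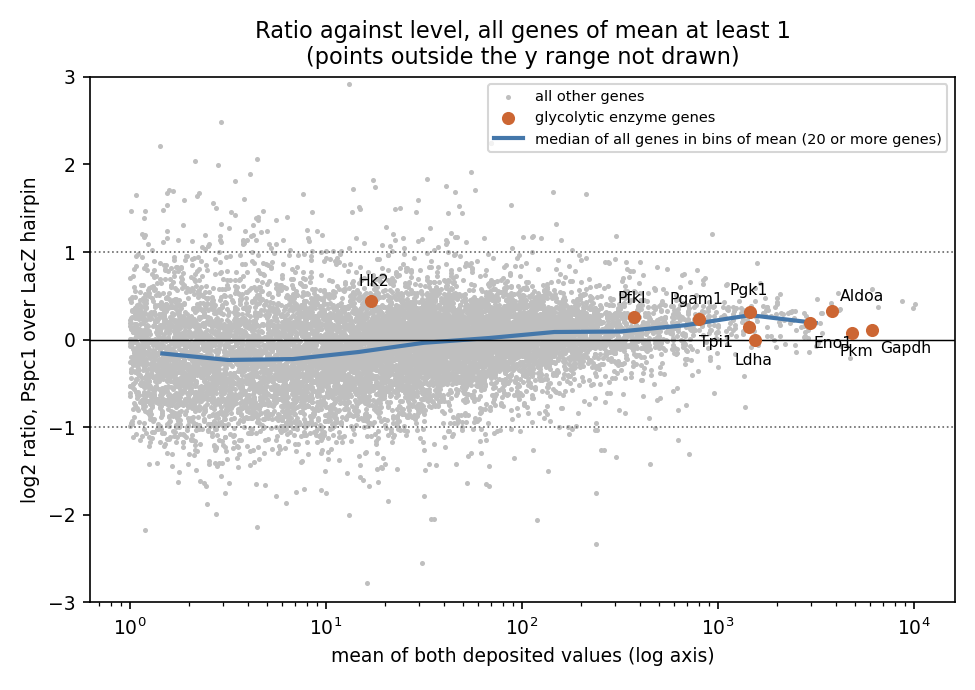
Log2 ratio of knockdown over control against the mean of both deposited values (log axis) for all genes of mean at least 1 (grey), with the 10 enzyme genes in orange, the median of all genes by bins of mean as a line, and dotted lines at 2-fold. The line runs upward to the right, and the abundant enzyme genes lie on either side of it within the dotted lines.

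Of the 10 enzyme genes 4 were among the 50 most abundant genes in each library. Gapdh ranked 5 in the control and 7 in the knockdown, Pkm 9 and 8, Aldoa 13 and 14, and Eno1 26 and 22. At the other end Pfkl ranked 521 and 447 and Hk2 6712 and 5842. Summed, the 10 genes made up 2.25% of all values in the control and 2.34% in the knockdown. Their sum was 1.12-fold larger in the knockdown library, and that of all values 1.07-fold. Per kilobase of exonic length the order of levels was Gapdh, Aldoa, Pkm, Pgk1, Eno1, Tpi1, Ldha, Pgam1, Pfkl and Hk2, in both libraries. Gapdh stood at 1419 and 1530 per kb, Aldoa at 1165 and 1461, and Pgam1 at 369.5 and 436.0. Pfkl, for a committing step, stood at 51.1 and 60.9 per kb, 27.8-fold and 25.1-fold under Gapdh. The middle of the order was close, from 582.3 per kb for Pgk1 to 469.1 for Ldha in the control library. With the longest transcript as the length, Aldoa came first and only 4 of the 10 genes kept their place.

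Isozymes of the same steps did not all go the same way. Of 19 further isozyme genes 8 were analysed, none was called, and 3 had a mean of at least 50. Hk1, the constitutive hexokinase, had 292.9 and 276.7, a log2 ratio of -0.08 (interval -0.11 to -0.05), against 0.44 for Hk2. Hk2 was the minor form, with 6.54% (control) and 9.21% (knockdown) of the hexokinase level per kb, or 3.66% and 5.22% with the longest transcript as length. The summed hexokinase level per kb was 36.7 and 35.7. Gpi1, glucose-6-phosphate isomerase, which acts between hexokinase and phosphofructokinase and is not among the 10, had 642.3 and 598.5, a log2 ratio of -0.10 (-0.12 to -0.08). The log2 ratios of Hk1 and Gpi1 lay below 0 under all 3 other scalings as well.

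For phosphofructokinase, Pfkl made up 76.9% of the control level per kb and 81.9% of the knockdown level. Pfkm, the muscle-type subunit, had values of 43.9 and 35.1, a log2 ratio of -0.32, and Pfkp, the platelet-type subunit, 29.3 and 39.6, a log2 ratio of 0.43. Exons of Pfkp overlap those of Pitrm1 on the opposite strand over 748 bp, and Pitrm1 had 39.2 and 35.5, so reads of these genes may be mixed. The summed phosphofructokinase level per kb was 66.4 and 74.4. For enolase, Eno3, the muscle-type form, had values of 108.0 and 151.4, a log2 ratio of 0.49 (0.44 to 0.53). Eno3 made up 10.8% and 12.9% of the enolase level per kb, or 4.83% and 5.88% with the longest transcript as length. Pgam2 had 1.15 and 0.95, and Bpgm, which makes a side product that regulates haemoglobin in red cells, had 10.02 and 7.58.

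**Figure D4:**
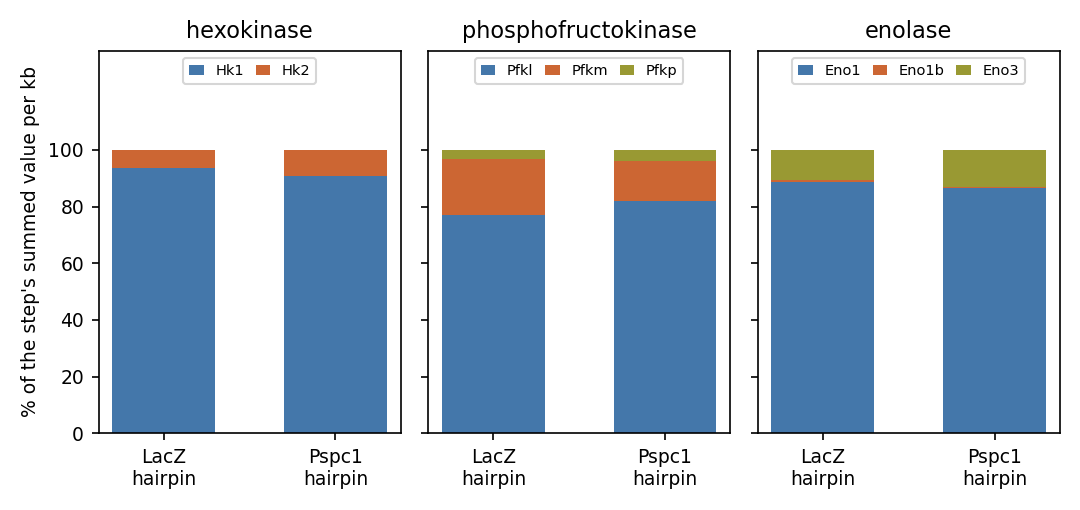
Share of each isozyme gene in the summed value per kb of exonic length of its step, in percent, for the LacZ and the Pspc1 hairpin library. Hk1 and Eno1 made up most of their step in both libraries, Pfkl went from 76.9% to 81.9%, and Eno1b is too small to see.

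Reads of several enzyme genes can be shared with near-identical copies. Annotated genes with at least 95% identity over at least 200 bp of transcript numbered 77 for Gapdh, of which 12 were in the tables. Those 12 summed to 80.8 and 84.4, or 1.38% and 1.33% of Gapdh. The 4 copies of Ldha and the 1 copy of Tpi1 were not analysed here, and no such copy was found for Hk2, Pfkl or Aldoa. Eno1 had 3 copies, of which Eno1b had values of 4.51 and 5.52. Of the copies of Pkm, Gm49759 (42.9 and 30.3) overlaps its exons on the same strand over 767 bp. With the copies' values added, the log2 ratio of Gapdh was 0.11, of Pkm 0.07 and of Eno1 0.19. Exons of Gapdh (68 bp, with Iffo1), Tpi1 (34 bp, with Spsb2) and Aldoa (25 bp, with Fam57b) overlap a gene on the opposite strand, and Fam57b had 83.4 and 125.0. How the authors treated reads that map to several places is not given in the sources used here, so this sum does not bound the error.

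Around the pathway, none of the listed genes was called higher or lower either. In glucose and lactate transport 5 of 11 listed genes were analysed and 3 had a mean of at least 50. Slc2a1, which encodes the main endothelial glucose transporter GLUT1, had 537.9 and 660.8, a log2 ratio of 0.30 (0.28 to 0.32), close to that of Aldoa and Pgk1. Bsg, basigin, the chaperone of the lactate transporters, had 820.6 and 991.5, and Slc16a1, a lactate transporter, 98.5 and 84.2, a log2 ratio of -0.23. The PFKFB enzymes and Tigar, which set the level of an activator of phosphofructokinase, all had means under 50. Among them Pfkfb3, known in endothelial sprouting, had 39.1 and 26.0, a log2 ratio of -0.58 (-0.68 to -0.49). Pfkfb1 (7.13 and 9.30) and Pfkfb4 (5.98 and 7.80) went the other way, both with a log2 ratio of 0.36. Tigar was at -0.07 and Pfkfb2 at -0.47.

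Genes that take up products of glycolysis went in both directions. The pentose phosphate list had 6 of 8 genes with a mean of at least 50, 3 above 0 and 3 below, with a median of 0.06. The transaldolase gene Taldo1, in the non-oxidative branch that returns sugars to glycolysis, had 509.7 and 774.1, a log2 ratio of 0.60 (0.58 to 0.62), and Tkt, transketolase of the same branch, 488.0 and 584.0. G6pdx, whose enzyme opens the oxidative branch, had 229.5 and 199.98, and Pgd, further along it, 269.5 and 332.2. In the tricarboxylic acid cycle 10 of 16 genes of that mean were above 0, with a median of 0.06, close to the 60.1% and the median of 0.07 of all genes of that mean. Suclg2, a subunit of succinyl-CoA synthetase, was the lowest (94.8 and 64.3, log2 ratio -0.56), while Cs, citrate synthase, had 570.1 and 687.8 and Sdhc, a subunit of succinate dehydrogenase, 174.6 and 208.1.

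For pyruvate entry into mitochondria 9 of 15 genes were above 0 at any mean and 6 below, with a median of 0.04. The list mixes enzyme subunits and carriers with kinases that inhibit pyruvate dehydrogenase, so its count is not a direction of entry. Without a minimum mean 45.2% of all genes were above 0. Only 3 of the 15 had a mean of at least 50, all 3 above 0, where 60.1% of all genes of that mean were. These were Pcx, pyruvate carboxylase (62.7 and 91.4, log2 ratio 0.54), Pdha1 (48.8 and 53.5) and Pdhb (134.6 and 137.8), subunits of pyruvate dehydrogenase. Among side branches 7 of 12 genes were above 0, again near the 60.1% of all genes, with a median of 0.06. The serine and glycine synthesis genes Shmt2 (384.0 and 496.0) and Psat1 (492.8 and 585.9) and the glycerol phosphate dehydrogenase gene Gpd1l (146.2 and 178.0) had the larger value in the knockdown library, and Gfpt2 of hexosamine synthesis (66.5 and 55.8) the smaller. Of the gluconeogenesis list only Pck2 had such a mean, with 163.4 and 166.6.

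**Figure D5:**
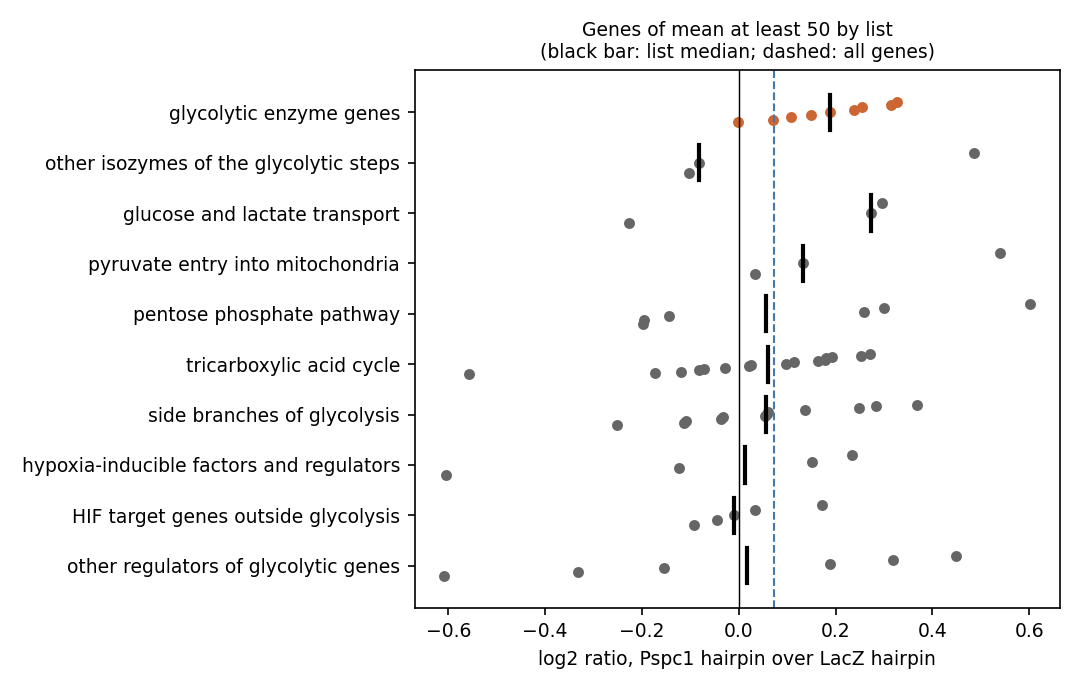
Log2 ratio of knockdown over control for each gene of mean at least 50, by list, with the list median as a black bar and the median of all genes of that mean (0.07) as a dashed line. The glycolytic enzyme genes span from -0.002 to 0.33, and the 3 points of the pyruvate entry list lie above 0.

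Both main hypoxia-inducible factor genes had the smaller value in the knockdown library, at low levels. Hif1a, the oxygen-regulated subunit known to drive glycolytic genes, had 15.0 and 5.54, from 980 and 281 reads, a log2 ratio of -1.36 (-1.64 to -1.25). Epas1, its endothelial relative, had 13.6 and 5.26, a log2 ratio of -1.29 (-1.58 to -1.17). Both had means under 50, so neither could be called. Both were singled out with their values in view. Without any minimum 2.68% of all 11405 genes were at least 2-fold lower. Their partner gene Arnt had 19.5 and 22.0. The prolyl hydroxylase genes, whose enzymes mark these factors for destruction, differed among themselves, with 61.6 and 40.3 for Egln3, 74.0 and 67.9 for Egln1 and 151.5 and 168.2 for Egln2. Hif1an, for the asparaginyl hydroxylase, had 137.9 and 162.3.

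Of 18 target genes of these factors outside glycolysis, 12 had a log2 ratio below 0 at any mean and 6 above. Without a minimum mean 45.2% of all genes lay above 0. The 5 with a mean of at least 50 ranged from -0.09 to 0.17, with a median of -0.01. They were Adm, adrenomedullin (57.8 and 54.2), Ndrg1 (343.0 and 332.3), Plod1 (145.9 and 149.4), P4ha2, a collagen prolyl hydroxylase (91.6 and 103.3) and Higd1a (59.3 and 58.9). Below that mean Car9, Bnip3, Bnip3l and Ankrd37 lay above 0, with log2 ratios of 0.13, 0.04, 0.03 and 0.07. Several others lay further from 0 on the lower side, and those given next were singled out with their values in view. P4ha1, another collagen prolyl hydroxylase, had 55.5 and 40.7, a log2 ratio of -0.44 (-0.52 to -0.37), and Ero1l, an oxidase of the endoplasmic reticulum, 22.1 and 16.1. Tfrc, the transferrin receptor, had 12.9 and 6.24, Kdm3a, a histone demethylase, 7.05 and 4.22, and the growth factor gene Vegfa 6.11 and 2.66. Of 14 other regulators 13 were analysed, with 4 above 0 and 9 below at any mean. Their median was -0.30, beside -0.05 for all genes without a minimum mean. The 6 with a mean of at least 50 split into 3 above and 3 below, with a median of 0.02. Among these Akt1, whose kinase promotes glucose uptake, had 1161 and 760.9, a log2 ratio of -0.61 (-0.63 to -0.59). Rptor, a subunit of the mTOR complex, had 127.0 and 100.8. The Myc gene had 59.7 and 53.6. Mlx, whose protein pairs with the glucose sensors of the Mondo family, had 52.1 and 65.0, and their target Txnip, a brake on glucose uptake, 105.3 and 143.8.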

How the data were processed

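Poly-A RNA of MS1 cells was sequenced in 2 libraries, 1 per group, grouped by the treatment label. The submitters' processing notes name DESeq 1.39.0, featureCounts 2.0.0, HISAT2 2.1.0 and Trimmomatic 0.39, and build mm10. Their roles, the annotation and the scaling are not given in the sources used here. Each deposited column is a signal per gene, that is, read counts scaled by the authors. Every value was a whole multiple of 1 step per library (100% of values within 0.01 reads), so reads were worked out by dividing by 0.0153 (control) and 0.0197 (knockdown). Because the tables were already scaled they were used as deposited. Without replicates no count model was run and no p-value was computed.

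Genes entered lists with a mean of at least 50. Log2 ratios used a pseudocount of 0.5, which understates the change of low genes. Counting intervals (95%, conditional binomial, Clopper-Pearson) rest on the reads, which carry no molecular identifiers. Coordinates and exonic lengths (exons merged) came from GENCODE release M21, which may not be the authors' annotation. Symbols were found for 11399 of 11405 identifiers. Of 2 genes named Aldoa the more abundant was used. The genes and lists were chosen with earlier results of these data known. The text names all 10 genes and every analysed isozyme. Per list it names the called genes and up to 4 others of mean 50 or more with the largest absolute log2 ratio. Named beside the rule were Hif1a, Epas1, Arnt, Myc, the PFKFB genes, Tigar, Cd68 and the endothelial markers. So were Higd1a, P4ha1, Ero1l, Tfrc, Kdm3a, Vegfa, Car9, Bnip3, Bnip3l and Ankrd37 among the target genes, and copies and overlapping genes. For 1 gene under the rule no values are reported here. Alternatives were other pseudocounts, scalings, minimums and trend corrections. The steps were tested on simulated data. Python 3.11.15, numpy 2.4.6, pandas 2.3.3, scipy 1.17.1 and matplotlib 3.10.9 were used.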

Additional observations from a re-analysis of the deposited data

How the results depend on the processing

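That none of the 9 enzyme genes of mean 50 or more reached 2-fold held under all 9 alternatives to pseudocount, scaling, minimum and trend, and at 1.5-fold; at the lowest fold tried there was 1, Aldoa. The median log2 ratio of 0.19 was 0.085 with scaling by total reads, 0.24 by the median of ratios and 0.23 by a trimmed mean of M values, 0.21 with no minimum (10 genes), 0.073 with the length and GC trend subtracted and -0.018 with the trend in the mean value subtracted; the last also took the genes above 0 from 8 to 4. The genes above 0 numbered between 7 and 9 under the other alternatives. The share of all genes above 0 under those ran from 45.2% with no minimum to 66.8% with median-of-ratios scaling. With the trend in the mean value subtracted it was 52.7%. With scaling by total reads, by the median of ratios and by a trimmed mean of M values, the median of all genes of mean 50 or more was -0.03, 0.12 and 0.12. The log2 ratio of Pspc1 was -1.94 with a pseudocount of 5 and -2.55 with the length and GC trend subtracted. Genes called higher and lower numbered 50 and 71 with a minimum of 20, and 149 and 306 with none. Without the 10 most abundant genes of each library, Gapdh and Pkm among them, the summed share of the enzyme genes was 1.247% and 1.37%. With the longest transcript as length, 4 of 10 genes kept their rank of level. No paired analysis was possible because each group held 1 library. The depth leaves counting intervals at most 0.055 log2 wide for the 9 genes, so the missing replicates, not the depth, limit what these ratios can show.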
